A study of Sminthopsis crassicaudata with 9 samples.

Results

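Divergent promoter pairs are neighboring genes that are transcribed away from each other from start sites that lie close together. In the gene models of the fat-tailed dunnart (Sminthopsis crassicaudata), a small marsupial born at a very early stage of development, 826 such pairs were found. A pair was a gene on the minus strand and, to its right on the same scaffold, a gene on the plus strand, with transcription start sites (TSSs) at most 1000 bp apart and with gene bodies that did not overlap. The pairs held 1652 of 21703 gene models (7.61%), on 126 of 273 scaffolds. The rule uses position and strand alone, with no histone mark or RNA level among its terms. The region of a pair was the span between its 2 TSSs with 1 kb added on each side, and positions are given on the scaffolds of the study's own dunnart assembly.

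The study profiled the face of pouch young under 24 hours old, within a day of birth. Chromatin was immunoprecipitated for H3K4me3 and for H3K27ac in 2 replicates, which were pools of tissue from 26 and 27 heads, and the total DNA of the same pool served as input. RNA was sequenced in 3 libraries from young on the day of birth, each library a pool of 2 young, and the libraries are called FP1, FP2 and FP3 after the columns of the count table. All samples came from a single condition, so the comparisons are between genes and regions within it, and no difference between members and other genes was tested. The tissue held several cell types. TWIST1, PRRX1 and ALX1 of facial mesenchyme, EPCAM and KRT8 of epithelium and MYOD1 of muscle were all expressed, with TWIST1 at 359, 285 and 217 TPM and MYOD1 at 226, 244 and 313 TPM. TPM are read counts per gene, divided by exon length and scaled to the same total in each library. The heart marker NPPA was at or near 0, whereas the lens marker CRYAA had 4.33, 3.62 and 2.56 TPM. In such bulk tissue, fewer cells of a type and less RNA per cell cannot be told apart.

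Transcription from many mammalian promoters starts on both strands, and where a gene lies on either side the same stretch of open chromatin can serve a pair of promoters. Head-to-head pairs are known to be common among genes that most cells use, such as those for DNA repair, translation and mitochondrial function. H3K4me3 is laid down on the nucleosomes that flank active start sites, and H3K27ac marks active promoters as well as enhancers.

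The start sites of most pairs lay far closer together than the limit. The median distance was 143 bp, with quartiles of 74 and 329.5 bp and a range of 1 to 990 bp. In 300 pairs (36.3%) the TSSs were at most 100 bp apart, and in 715 (86.6%) at most 500 bp. The distribution had its mode below 100 bp and a long, thin tail towards the limit. FBXO44/FBXO2 and P2RX2/LRCOL1 had TSSs 2 bp apart, and FOXA1/TTC6 and ORC1/PRPF38A 4 bp apart. Just inside the limit were LOC116419364/RBFOX2 (990 bp), UROS/BCCIP (989 bp) and LOC116420961/PLK2 (980 bp), with H3K4me3 fold enrichments of 80.9, 32.0 and 74.7 in pool 1. Just outside it were RPL7/RDH10 (1004 bp), LOC100919701/FAM227A (1007 bp) and LBHD1/LOC100916591 (1027 bp), with 67.9, 28.2 and 30.5. A single H3K4me3 peak covered both TSSs in both pools in all 3 of the latter pairs, and inside the limit in LOC116419364/RBFOX2 and UROS/BCCIP but not in LOC116420961/PLK2.

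**Figure D1:**
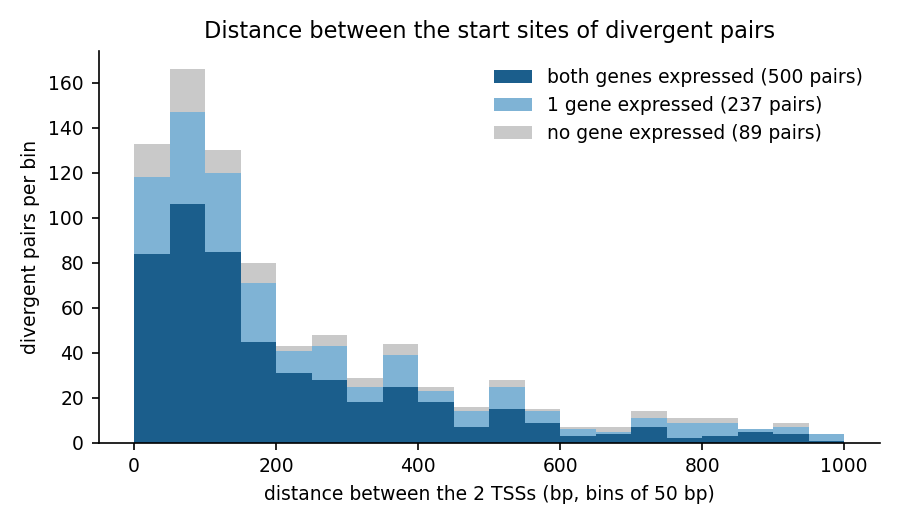
Number of divergent pairs (vertical axis) by the distance between their 2 TSSs (horizontal axis, bp, bins of 50 bp), with stacked colors for pairs in which both genes (500), 1 gene (237) or no gene (89) was expressed. Most pairs sit at the left, with 300 of 826 at 100 bp or less, and each of the 3 classes is most frequent below 200 bp.

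Both genes had a symbol in 491 pairs (59.4%), 1 gene had one in 278 (33.7%), and in 57 (6.90%) both were LOC models, which carry only an identifier. Every other name counted as a symbol, those of 359 tRNA gene models included. Without tRNA genes, 469 pairs had symbols at both genes. In 26 pairs at least 1 member was a tRNA gene, and in 14 of these both were. The models were those of the Tasmanian devil moved onto the dunnart assembly. The order of the genes was therefore also read in the RefSeq annotation of a different dunnart assembly, ASM4859323v1. Of 434 pairs whose symbols both occur there, 393 (90.6%) were direct neighbors and 431 (99.3%) had at most 2 genes between them. Among 1348 pairs of neighboring genes in the same orientation, with symbols at both, 88.4% were direct neighbors there.

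Divergent regions were marked almost throughout. H3K4me3 was called in both pools at 788 of 826 regions (95.4%), H3K27ac at 795 (96.2%) and both marks at 787 (95.3%). Over all gene models, 67.9% had H3K4me3, 71.7% had H3K27ac and 66.6% had both marks in both pools within 1 kb of the TSS. Regions of other neighboring genes at most 10 kb apart, which also hold 2 TSSs but run over longer spans and can take in whole gene bodies, had H3K4me3 in 96.5% for convergent, 92.5% for more distant divergent and 86.6% for tandem neighbors, and both marks in 95.9%, 90.9% and 85.0%. As regions, divergent pairs were marked about as often as convergent neighbors. The regions of convergent neighbors always hold both gene bodies, so the 2 shares are over windows of unlike length. Read within 1 kb of their own TSS, member genes had H3K4me3 in 95.4% and H3K27ac in 96.1%. The share depended on the annotation. H3K4me3 was found at 98% of member genes with a symbol against 81.8% of other genes with one, and at 87.0% of member LOC models against 36.3% of other LOC models. LOC models in divergent pairs were thus marked far more often than LOC models elsewhere, although the next gene of a pair lies within the same window.

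A single peak usually spanned the pair. In 754 of the 788 regions with H3K4me3 (95.7%), 1 H3K4me3 peak covered both TSSs in both pools, and 1 H3K27ac peak did so in 750 of 795 (94.3%). Divergent neighbors with TSSs more than 1 kb and up to 10 kb apart had such an H3K4me3 peak in 12.8% of 705 cases. The share with such an H3K27ac peak was 11.6%. Among their marked regions alone the shares were 13.8% of 652 for H3K4me3 and 12.5% of 658 for H3K27ac. The share of marked regions with 1 peak over both TSSs fell with distance, from 98.3% at 1 to 100 bp to 97.98%, 93.8% and 89.4% at 101 to 200, 201 to 400 and 401 to 1000 bp. The median length of the strongest H3K4me3 peak was 2824 bp in pool 1 and 2833 bp in pool 2 for the closest pairs, and 3340 and 3221.5 bp for the widest. The limit of 1000 bp is short against these lengths, so a peak over 1 TSS will often reach the other. The coverage and its contrast with more distant neighbors therefore show little beyond the distance that the rule sets.

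Peaks at divergent regions were also strong. The fold enrichment of a peak is its height over the input of the same pool. Its median for H3K4me3 was 53.8 in pool 1 and 61.7 in pool 2, against 36.6 and 43.4 at the 13151 marked TSSs of other genes. For H3K27ac the medians were 35.5 and 28.8, against 22.8 and 19.9 at 13982 other TSSs. H3K4me3 was higher in pool 2 at 74.9% of regions, whereas H3K27ac was higher in pool 1 at 75.7%, so the pools differed in scale in opposite ways for the 2 marks. The member regions exceeded other starts in each pool and for each mark. Over the mean of the pools, the H3K4me3 median was 58.3 at divergent regions. It was 53.6 at the 652 marked regions of divergent neighbors further apart, a smaller gap, although the latter regions are longer. For H3K27ac the 2 medians were nearly equal, 32.3 at divergent regions and 31.2 at 658 regions of the more distant neighbors. Against all other starts the gap was widest among the weaker peaks. The 25th percentile of H3K4me3 in pool 1 was 36.7 at divergent regions and 13.7 at other starts, whereas the 95th percentiles were 86.0 and 83.8. Among expressed genes with H3K4me3, the medians over the mean of the pools were 61.6 for 1228 member genes and 51.5 for 9586 others, which had median RNA levels of 24.7 and 22.1 TPM.

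**Figure D2:**
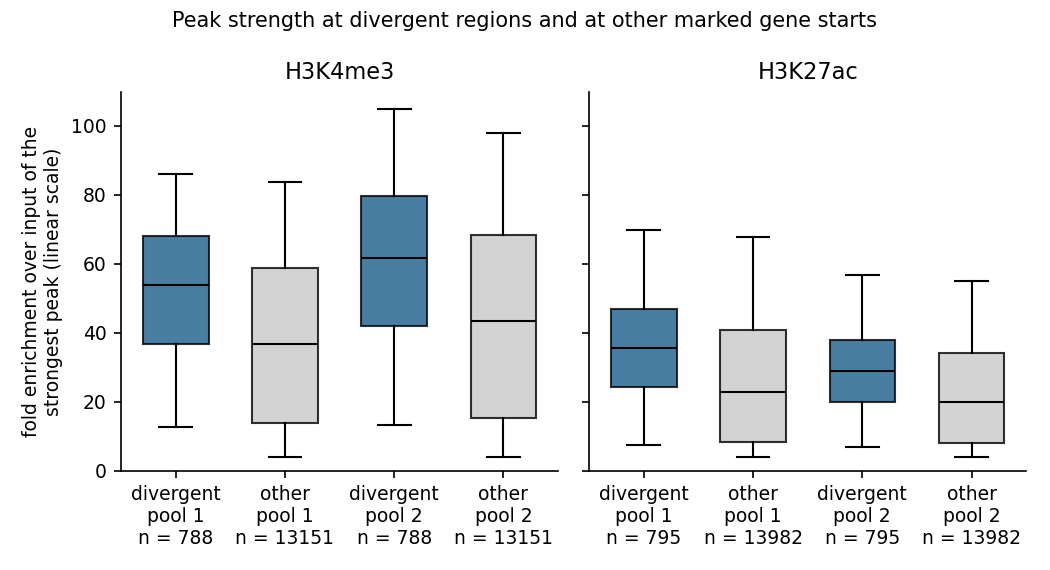
Fold enrichment over input (linear vertical axis) of the strongest H3K4me3 peak (left) and H3K27ac peak (right) at marked divergent regions (blue) and within 1 kb of the marked TSSs of other genes (gray), per pool. Boxes give quartiles and median and whiskers the 5th and 95th percentiles, and the lower edge of each blue box lies far above that of the gray box beside it while the upper whiskers nearly meet.

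The fold enrichments of the regions were alike between pools (Pearson's r of log2 fold 0.907 for H3K4me3 over 788 regions and 0.883 for H3K27ac over 795) and between marks (r 0.782 and Spearman's rho 0.593 over 787). These are descriptions across regions that share the pools and their inputs. Among pairs with symbols, the strongest H3K4me3 was at TIMM23B/PARG, a subunit of the inner membrane import machinery of mitochondria and a poly(ADP-ribose) glycohydrolase (scaffold 57, TSSs at 6108581 and 6108609), with 84.9 and 147.0. KRIT1/ANKIB1 followed with 114.3 and 112.9, SRSF2/MFSD11 with 101.4 and 122.7, and PHF20/RBM39 with 104.9 and 113.3. SRSF2 and RBM39 are splicing factors. The spread between the pools for TIMM23B/PARG was larger than the gaps between these 4 pairs, so their order is not fixed by the data.

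Most members were transcribed. With a threshold of more than 1 TPM in all 3 libraries, 1237 of 1652 member genes (74.9%) were expressed, against 56.5% of all 21692 gene models with counts. The median RNA level of member genes was 12.6, 16.6 and 12.4 TPM in FP1, FP2 and FP3, and 2.96, 3.85 and 2.56 TPM for other genes. The lowest library median of the members lay above the highest of the others. Annotation again mattered, since 88.9% of member genes with a symbol and 74.0% of other genes with one were expressed, against 29.8% of member and 20.6% of other LOC models.

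Both genes were expressed in 500 pairs (60.5%), against 49.5% of 5798 other neighboring pairs at most 10 kb apart. By class, the latter share was 55.5% for convergent, 46.5% for tandem and 46.1% for more distant divergent neighbors. In 237 pairs (28.7%) 1 gene was expressed, and in 89 (10.8%) none was. Where both genes had a symbol and neither was a tRNA gene, 87.8% of 469 divergent pairs had both genes expressed. The same share was 70.3% for divergent neighbors further apart, 69.2% for neighbors in tandem and 68.6% for convergent neighbors. Closeness itself made little difference within the limit up to 400 bp, with 63.7%, 61.7% and 62.7% of pairs having both genes expressed in the 3 closer classes of distance, and 50.3% at 401 to 1000 bp.

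The levels of the 2 genes of a pair were not alike. Across the 500 pairs with both genes expressed, the median absolute log2 ratio of TPM was 1.61, with 1.65, 1.54 and 1.74 in the 3 libraries. It was 1.75 for the more distant divergent neighbors, 1.69 for tandem and 1.70 for convergent neighbors, and the span of the 3 library values for divergent pairs takes in the values for tandem and convergent neighbors. Among neighbors with symbols at both genes the medians were 1.55 for divergent pairs, 1.53 for the more distant divergent neighbors, 1.80 for tandem and 1.66 for convergent ones. Only 161 pairs (32.2%) were within 2-fold of each other, and 117 (23.4%) differed by more than 8-fold. The library ranges of the 2 genes did not overlap in 403 pairs (80.6%), against 80.0% of other expressed neighbors. With 3 values on each side, an exact permutation test cannot go below a two-sided p of 0.10, so no p is given for single pairs. The intraclass correlation of log2 TPM across the 500 pairs was 0.111, and 0.164 for tandem, 0.103 for distant divergent and 0.076 for convergent neighbors, as a description over pairs measured in the same 3 libraries. Within a pair, the SD of the log2 ratio over the libraries had a median of 0.27 and a maximum of 1.45. The same is not given for other neighbors.

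**Figure D3:**
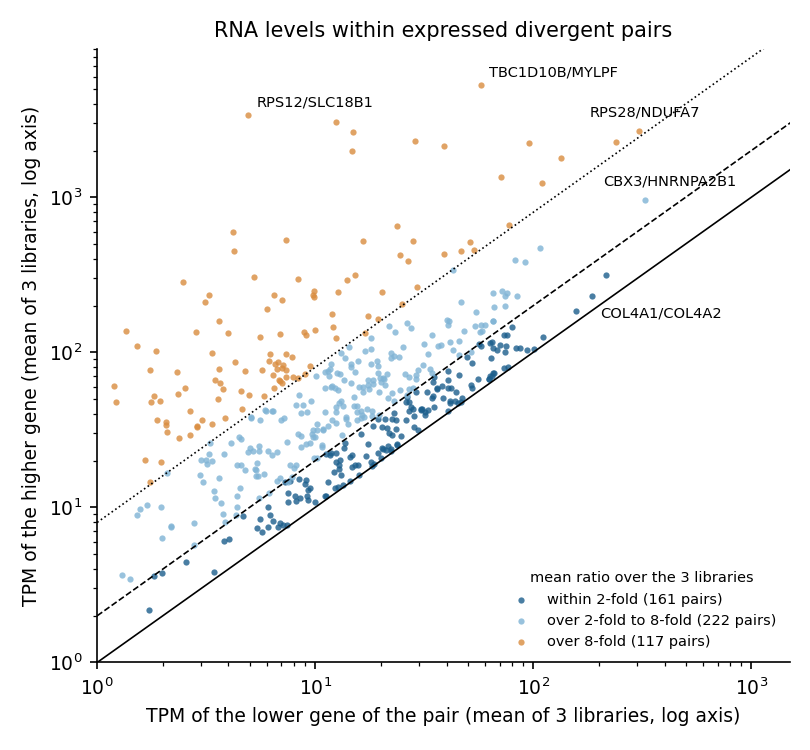
TPM of the lower (horizontal, log axis) and higher gene (vertical, log axis) of the 500 divergent pairs with both genes expressed, as means of 3 libraries, colored by the mean ratio over the libraries. The solid line marks equal levels, the dashed line 2-fold and the dotted line 8-fold, and 117 pairs are more than 8-fold apart while 161 are within 2-fold.

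The type IV collagen genes show how far pairs can differ in level. COL4A1 and COL4A2 encode the 2 chains of the main collagen of basement membranes, and their TSSs were 190 bp apart (scaffold 53, 3073235 and 3073425). COL4A1 had 163, 299 and 225 TPM in FP1, FP2 and FP3, and COL4A2 had 138, 240 and 180 TPM. Both genes were lowest in FP1 and highest in FP2, and their ranges overlapped. The log2 ratio of COL4A2 over COL4A1 was nevertheless steady at -0.29 ± 0.05 (SD, n = 3). H3K4me3 was 33.1 and 58.8 and H3K27ac was 21.4 and 29.7 in pools 1 and 2. COL4A3 and COL4A4, chains of the collagen of the kidney glomerulus and inner ear, had TSSs 66 bp apart (scaffold 1, 3954793 and 3954859). COL4A3 had 0.215, 0.413 and 0.179 TPM and COL4A4 had 0.0604, 0.128 and 0.0504 TPM, all under the threshold. Their region still held H3K4me3 at 24.5 and 31.3 and H3K27ac at 9.61 and 11.1, so 1 collagen pair was marked and transcribed and the other marked with next to no RNA.

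Further pairs that are well known from other mammals were found among the members. PPAT and PAICS, which encode enzymes of purine synthesis, had TSSs 511 bp apart. PPAT had 24.9, 37.0 and 27.3 TPM and PAICS 75.3, 82.2 and 72.0 TPM, without overlap. PRKDC, the catalytic subunit of a DNA repair kinase, and MCM4, a subunit of the replicative helicase, lay 818 bp apart with 7.05, 10.3 and 6.15 TPM against 88.0, 113.5 and 79.3 TPM. The log2 ratio of MCM4 over PRKDC was 3.60 ± 0.12 (SD, n = 3). MRPS12 and SARS2, of the mitochondrial ribosome and its seryl-tRNA synthetase, lay 99 bp apart and had 115 ± 34.7 and 63.6 ± 17.8 TPM (SD, n = 3), with non-overlapping ranges. TAP1 and PSMB9, of peptide transport and the immunoproteasome, had 0.470 ± 0.196 TPM and 0 counts, and H3K4me3 of 15.1 and 16.8. PSMB9 RNA was not detectable at this depth of 16096971 to 17419099 counts per library.

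Not every known pair met the rule. The models of SIRT3/PSMD13 and BRCA1/NBR1 overlapped at their 5′ ends, with TSSs 131 and 55 bp apart. The TSSs of FEN1/TMEM258 lay 1993 bp apart. When 5′ overlaps of up to 1000 bp were allowed, the number of pairs was 1088.

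Among pairs with symbols at both genes and both expressed, the 8 largest differences included 3 with a ribosomal protein gene. RPS12, a protein of the small ribosomal subunit, had 4125, 2492 and 3585 TPM, and its neighbor SLC18B1, a vesicular transporter 115 bp away, had 5.64, 6.63 and 2.52 TPM. Every library of RPS12 was far above every library of SLC18B1, and the log2 ratio of SLC18B1 over RPS12 was -9.51 ± 0.96. MED22 and RPL7A had TSSs 5 bp apart (scaffold 2, 339138820 and 339138825) and had 14.3, 16.7 and 13.9 TPM against 2926, 2262 and 2656 TPM. Both TSSs lay under 1 H3K4me3 peak of 79.6-fold in pool 1 and 111.2-fold in pool 2. MDH1, the cytosolic malate dehydrogenase, and WDPCP, a gene of planar polarity and cilia, lay 17 bp apart with 595 ± 121 and 4.19 ± 0.52 TPM (SD, n = 3). GNG5/SPATA1 (33 bp), EMC10/FAM71E1 (398 bp), DBI/C3H2orf76 (81 bp) and PIDD1/RPLP2 (371 bp) had log2 ratios of -6.77, -6.84, -6.19 and 6.40, right gene over left. TBC1D10B/MYLPF was the other pair among the 8.

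It was the pair with the most abundant member. MYLPF encodes a myosin light chain of fast skeletal muscle and had 5076, 4612 and 6244 TPM, whereas TBC1D10B, a regulator of Rab GTPases 205 bp away (scaffold 4, 41194103 and 41194308), had 53.0, 60.5 and 58.7 TPM. TBC1D10B varied little and MYLPF was highest in FP3, where MYOD1 was also highest. H3K4me3 over the pair was 74.6 and 93.0.

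At the other end were pairs with almost equal levels, taken among those with symbols at both genes. INTS7 and DTL, of the Integrator complex and of a ubiquitin ligase that acts in DNA replication, had 15.2, 22.8 and 16.7 against 17.4, 21.7 and 16.1 TPM. Their ranges overlapped, and the log2 ratio of DTL over INTS7 was 0.03 ± 0.15 (SD, n = 3). ATG12/AP3S1 had 47.5 ± 12.2 and 46.4 ± 3.89 TPM, but the ratio in single libraries varied more (SD 0.26 on the log2 scale). THAP5/DNAJB9 and MOSPD2/FANCB were also among the most equal pairs, with log2 ratios of -0.02 in both.

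In pairs of a gene with a symbol and a LOC model, the levels were one-sided. Over the 278 such pairs the median was 19.9 TPM for the gene with a symbol and 0.269 TPM for the LOC model. The gene with a symbol was expressed in 239 and the LOC model in 83. All libraries of the gene with a symbol lay above all those of the LOC model in 222 pairs, and the reverse held in 28. The same order held outside divergent pairs, where 74.0% of genes with a symbol and 20.6% of LOC models were expressed. The contrast was therefore not particular to divergent pairs, and whether it is larger in them was not tested.

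The marks followed the expression of the pair. H3K4me3 was present in both pools at 499 of 500 regions with both genes expressed, 230 of 237 with 1 and 59 of 89 with none, and the median fold enrichments over the mean of the pools were 63.7, 54.0 and 15.99. For H3K27ac in regions with no gene expressed the median was 8.88. Neither mark was called in either pool at 0, 3 and 22 regions of the 3 classes. A relation of marks and expression was also seen over all genes. Within 1 kb of the TSS, 10814 of 12250 expressed genes in all had H3K4me3 in both pools, against 14727 of 21703 gene models. The latter set includes the expressed genes. The share among genes that were not expressed is not given here, so 59 of 89 has no matching value beside it. Across the 788 regions with H3K4me3, its fold enrichment was related to the summed TPM of the 2 genes with a Spearman's rho of 0.456 and to that of the lower gene with 0.376, as a description across regions. The H3K27ac fold and summed TPM had a rho of 0.385 over 795 regions.

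**Figure D4:**
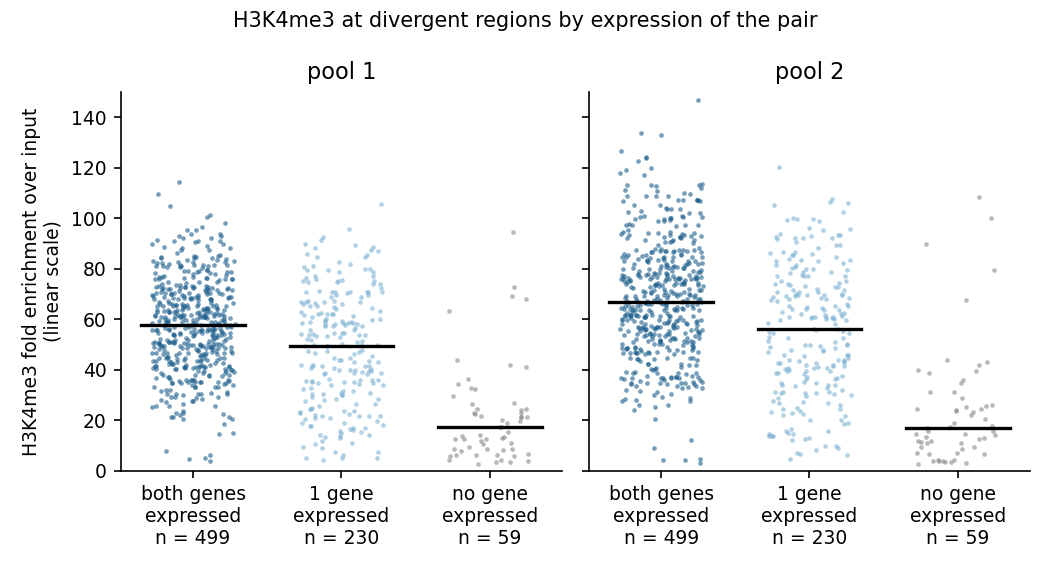
H3K4me3 fold enrichment over input (linear vertical axis) of each marked divergent region in pool 1 (left) and pool 2 (right), by whether both genes, 1 gene or no gene of the pair was expressed. Points are regions, spread sideways for clarity, and bars are medians, and in both pools the regions with no expressed gene lie lowest while those with 1 expressed gene overlap widely with those with both.

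Genes below the threshold mostly lay under the same peak as their expressed neighbor. In the 237 pairs with 1 expressed gene, that gene had a median of 20.04 TPM and the other 0.163 TPM, and the other gene had 0 counts in all libraries in 63. A single H3K4me3 peak covered both TSSs in both pools in 215 of them (90.7%), and a single H3K27ac peak in 213 (89.9%). Here too the TSSs are close against the length of the peaks, so little can be read from this coverage. The other gene had a symbol in 60 pairs. RPS27A/CLHC1 (120 bp) had 2011, 1816 and 2037 TPM against 0.0389, 0 and 0.0434 TPM, under H3K4me3 of 67.2 and 82.3. VPS29, a subunit of retromer, had 91.1 ± 9.15 TPM next to RAD9B, a relative of a checkpoint clamp subunit known from testis, at 0.0198 TPM. CDKN1B, the cell cycle inhibitor p27, had 25.0, 36.4 and 30.0 TPM, and the receptor gene GPR19 at 44 bp had 0.732, 1.44 and 0.796 TPM. PEG10 and SGCE, known as imprinted neighbors in eutherian mammals, with TSSs 318 bp apart here, had 1.26, 1.11 and 0.704 TPM against 33.2, 26.9 and 13.2 TPM. These 4 pairs were chosen after their values were seen.

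Of the 67 pairs with both genes at or under 1 TPM in all libraries, 39 had H3K4me3 in both pools, with a median of 12.2. Each region holds 2 TSSs, and the same share is not given for other silent genes or pairs. Whether 39 of 67 is high for silent genes therefore cannot be read from it. In 4 of the 39 pairs both genes had a symbol and neither was a tRNA gene. They were COL4A3/COL4A4, TAP1/PSMB9, LRRC36/KCTD19 (21.6 and 20.5) and ABCG5/ABCG8 (4.18 and 2.49), the sterol transporters of liver and gut. The 26 pairs with a tRNA gene all had both marks, and among them TRNAA-UGC/TRNAD-GUC, picked after the values were seen, had 0 counts for both genes and H3K4me3 of 41.0 and 39.6. tRNA genes are transcribed by RNA polymerase III, and their counts in such libraries are no measure of tRNA.

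Only 25 regions (3.03%) had neither mark in either pool. In 16 of them both genes were LOC models, and in 11 both genes had 0 counts in every library. The 3 with symbols at both genes were FOXA1/TTC6, C2H9orf116/DNAJC3 and PLCZ1/CAPZA3. FOXA1, a pioneer factor of endoderm, had 0.700, 2.71 and 1.92 TPM. Its region, at 4 bp between the TSSs (scaffold 2, 384972344 and 384972348), held no peak of either mark. Where 1 gene was expressed without a mark in the region, PHF19, a partner of Polycomb repressive complex 2, had 16.5, 25.5 and 11.97 TPM beside a LOC model at 0 counts, STK3, a kinase of the Hippo pathway, had 3.78, 8.32 and 5.23 TPM, and DNASE2B, at 0 counts, had a LOC neighbor at 3.49 ± 1.62 TPM (SD, n = 3). The distance of the true start sites of these genes from the lifted models was not tested. TMC6/TMC8 was the only pair with both genes expressed that lacked H3K4me3 in 1 pool, with no peak in pool 1 and 4.57 in pool 2, while H3K27ac was 9.27 and 5.69. TMC6 had 18.9, 21.0 and 19.5 TPM and TMC8 had 4.81, 3.10 and 2.22 TPM. CLDND1/LOC116420924, with 52.9 ± 8.51 and 4.97 ± 1.80 TPM (SD, n = 3), had the weakest H3K4me3 of the pairs with both genes expressed and marked in both pools, at 3.72 and 4.54. PHF19, STK3, DNASE2B, TMC6/TMC8 and CLDND1 were named after their values were seen.

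H3K27ac without H3K4me3 was rare. Both pools had H3K27ac and neither had H3K4me3 at 3 regions, those of C5H12orf40/SYT10 (5.30 and 4.54), LOC116419317/JAZF1 (2.77 and 3.78) and LOC116421620/LOC100931187 (3.09 and 4.49). The reverse, H3K4me3 in both pools and no H3K27ac in either, occurred at KIAA1324/C4H1orf194 (7.29 and 9.59). All 4 had low fold enrichments for their mark, and their names were taken after the values were seen.

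The peak over a pair leaned towards the gene with more RNA. Regions with 1 H3K4me3 peak that covered both TSSs, and with a finite ratio of TPM in every library, were divided by that ratio. Where the genes differed by more than 8-fold, the summit lay on the side of the higher gene in 158 of 191 regions in pool 1 (82.7%) and 159 of 193 in pool 2 (82.4%). The share was 63.6% and 60.9% for ratios over 2-fold and up to 8-fold, and 57.0% and 55.8% for ratios within 2-fold. It was 80.2% and 78.7% over 8-fold among pairs with symbols at both genes. H3K27ac summits showed the same order with smaller shares, 67.5% and 68.2% over 8-fold and 50.9% and 53.1% within 2-fold. Over 8-fold it was 63.2% and 64.5% for H3K27ac among pairs with symbols at both genes and 61.1% and 64.6% among pairs with both genes expressed, against 58.8% and 59.1% of all regions over 2-fold and up to 8-fold. Both pools gave the same order for both marks.

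**Figure D5:**
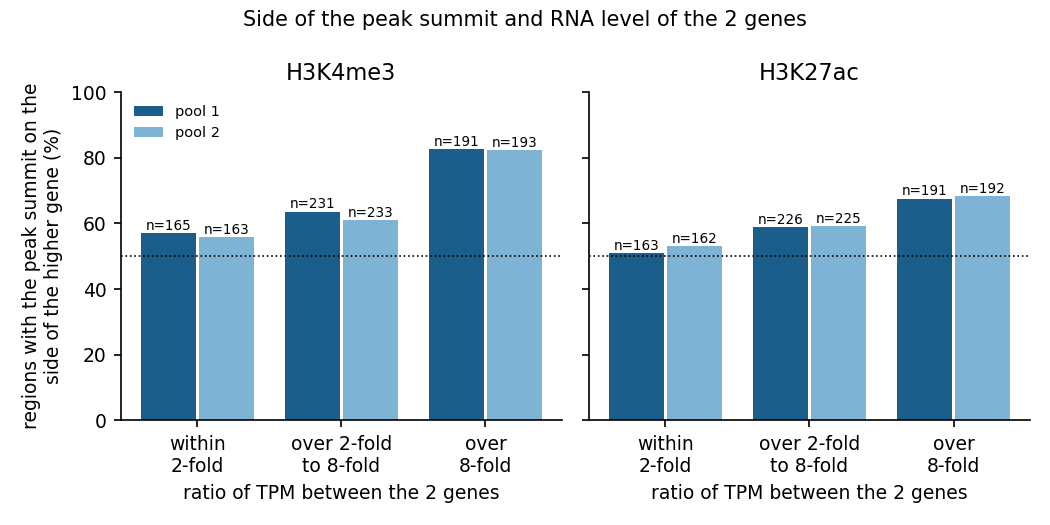
Share of regions (vertical axis, %) whose H3K4me3 (left) or H3K27ac summit (right) lay on the side of the gene with the higher TPM, by the ratio of TPM within the pair and by pool (dark and light bars), with the number of regions above each bar. The dotted line marks 50%, and the bars rise from 57.0% and 55.8% to 82.7% and 82.4% for H3K4me3 and from 50.9% and 53.1% to 67.5% and 68.2% for H3K27ac.

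Peak edges showed the same lean. With ratios over 8-fold, the H3K4me3 peak ran a median of 1723 bp past the TSS of the higher gene and 1172 bp past that of the lower gene in pool 1, and 1727 and 1186 bp in pool 2. Within 2-fold the reaches were 1407 and 1378 bp in pool 1 and 1386 and 1367 bp in pool 2, where they were nearly equal. The summit itself seldom lay between the TSSs, in 40 of 758 regions for H3K4me3 in pool 1 (5.28%), with a median distance of 326 bp from the nearer TSS in pool 1 and 316.5 bp in pool 2. For H3K27ac this distance was 278 and 280 bp. The gaps are short against the length of the peaks, so little can be read from the share of summits that fall in them.

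Functional groups differed in how many of their genes stood in divergent pairs. Over all genes with a symbol, tRNA genes included, the share was 8.89%. It was 23 of 101 annotated genes of DNA replication and repair (22.8%), 13 of 53 of oxidative phosphorylation (24.5%), 8 of 37 chaperones (21.6%), 11 of 59 splicing factors (18.6%), 12 of 68 cytosolic ribosomal proteins (17.6%), 6 of 34 aminoacyl-tRNA synthetases (17.6%) and 10 of 64 mitochondrial ribosomal proteins (15.6%). Cell cycle genes (7 of 55), cilium genes (6 of 51), collagens (4 of 38) and genes named TMEM (22 of 198) had shares from 10.5% to 12.7%. Zinc finger genes (12 of 158, 7.59%) were near the share of all genes, and proteasome genes (2 of 41) were below it. None of 59 annotated transcription factors of facial development and none of 27 muscle genes was a member, and signaling had 1 of 45 and skin 1 of 20. In the smaller lists a few genes decide the share, and no difference from 8.89% was tested. MYLPF was not on the muscle list.

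The members from the signaling and skin lists were FGF18 and CDH1. FGF18, a growth factor of skeletal growth, had 10.8, 14.96 and 13.5 TPM beside a LOC model with 0 counts (349 bp), with H3K4me3 of 50.9 and 60.8. CDH1, which encodes E-cadherin of epithelia, had 41.5, 97.1 and 91.3 TPM beside a LOC model 112 bp away with 1.06, 0.859 and 0.394 TPM. CDH1 was lowest in FP1, as were EPCAM at 43.1 TPM and TP63 at 28.2 TPM. Of the other epithelial markers, KRT18 was highest in FP1 (103, 85.6 and 81.9 TPM) and KRT8 varied little (290.0, 294 and 282 TPM). The part of epithelial content in the level of CDH1 was not tested.

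Of the 22 pairs with genes of DNA replication and repair, 22 had both marks and 20 had both genes expressed. The listed gene was above its neighbor in all libraries in 8 of the 21 pairs with 1 such gene and below it in 11. The medians were 15.4 and 24.5 TPM, and genes of this list outside pairs had a median of 20.9 TPM. Over all 826 pairs, whatever the list, the library ranges of the 2 genes did not overlap in 81.2%. A clear order within most pairs of a list was therefore usual. RPA3, of the complex that coats single-stranded DNA, had 195 ± 74.7 TPM next to UMAD1 at 65.9 ± 9.75, and the endonuclease gene APEX1 had 151 ± 42.8 next to OSGEP at 59.8 ± 13.2 TPM (SD, n = 3). MCM7, another subunit of the replicative helicase, had 112 ± 13.0 TPM and AP4M1 had 31.5 ± 1.75 TPM. ORC1, of the origin recognition complex, had 19.4, 23.0 and 17.2 TPM against 77.4, 69.6 and 59.2 TPM for the splicing gene PRPF38A.

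Ribosomal protein genes stood at the high end of every pair they were in. All 12 were above their neighbor in all 3 libraries, with medians of 2464 TPM and 14.9 TPM for the neighbor. The ribosomal protein genes outside pairs were high too, with a median of 1951 TPM. Reads of ribosomal protein genes can be shared with processed copies elsewhere in the genome, so their levels are uncertain. RPS28 had 3451, 2088 and 2438 TPM and NDUFA7, a subunit of respiratory complex I 21 bp away, 366, 257 and 296 TPM. Both were highest in FP1 and lowest in FP2, with a log2 ratio of NDUFA7 over RPS28 of -3.10 ± 0.12. ZWILCH, of the kinetochore, had 228, 282 and 210 TPM and RPL4 had 2307, 2144 and 2315 TPM.

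Genes of oxidative phosphorylation were the higher gene in all libraries in 10 of 13 pairs and the lower in 2. The medians were 209 TPM for these genes and 40.5 TPM for the neighbors. Genes of the same list outside pairs had a median of 198 TPM. ATP5PB, of the ATP synthase, had 473 ± 37.9 TPM beside WDR77 at 107 ± 8.96 TPM (SD, n = 3). Mitochondrial ribosome genes were above their neighbor in all libraries in 6 of the 8 pairs with 1 such gene and below it in 2. Their median was 96.1 TPM, against 33.8 TPM for the neighbors and 70.8 TPM for mitochondrial ribosome genes outside pairs. In 1 further pair both genes were of this list. In that pair, MRPL46 had 69.0, 54.7 and 48.4 TPM and MRPS11 had 171, 145 and 131 TPM, and MRPL47 had 63.5, 53.6 and 53.5 against 149, 125 and 132 TPM for NDUFB5 of respiratory complex I. In both pairs the 2 genes held an even ratio over the libraries, 1.39 ± 0.06 and 1.25 ± 0.04 on the log2 scale, right gene over left.

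Splicing factors were above their neighbor in all libraries in 8 of 11 pairs and below it in all libraries in none. Their median was 103 TPM, against 31.3 TPM for the neighbors and 95.2 TPM for splicing factors outside pairs. CBX3, a heterochromatin protein, and HNRNPA2B1, an RNA-binding protein, are the pair whose region serves in other mammals as an element that keeps chromatin open. They lay 308 bp apart (scaffold 9, 55643437 and 55643745) and had 340, 366 and 271 TPM against 976, 1021 and 887 TPM. Their region had the highest H3K27ac of all members over the mean of the pools, 109 and 94.2, with H3K4me3 of 100 and 110. HNRNPA1/CBX5, the paralogous pair, had 667 ± 150 and 77.1 ± 14.5 TPM (SD, n = 3) and H3K27ac of 49.2 and 25.8. In both pairs the RNA-binding protein gene was higher than the heterochromatin gene in every library.

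Chaperone genes were above their neighbor in all libraries in 6 of 8 pairs and below it in 1. Their median was 164 TPM, against 8.02 TPM for the neighbors and 176 TPM for chaperone genes outside pairs. PFDN6, a subunit of prefoldin, had 250 ± 43.7 TPM beside WDR46 at 71.5 ± 6.25 TPM, whereas TECR/DNAJB1 were close, at 202, 179 and 174 against 135, 172 and 163 TPM. Cilium genes were above their neighbor in all libraries in 1 of 6 pairs and below it in 3. Their median was 7.90 TPM, against 11.4 TPM for the neighbors and 11.8 TPM for cilium genes outside pairs. IFT80, of intraflagellar transport, had 9.92, 16.2 and 8.72 TPM beside SMC4, of condensin, with 66.3, 81.9 and 61.3 TPM. IFT122 and the repair gene MBD4 were nearly equal, with 14.1, 13.0 and 11.001 against 14.8, 14.2 and 11.7 TPM and a log2 ratio of 0.09 ± 0.03. Among synthetase genes, YARS1 had 144 ± 17.6 TPM beside S100PBP at 27.6 ± 1.99, and among zinc finger genes ZNF48 had 27.0 ± 2.43 TPM beside SEPTIN1 at 41.7 ± 10.997 (SD, n = 3).

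Only 6 pairs had genes of the same symbol stem. They were COL4A1/COL4A2, COL4A3/COL4A4, ABHD14B/ABHD14A, ABCG5/ABCG8, FBXO44/FBXO2 and TMC6/TMC8. FBXO2, a ubiquitin ligase subunit known from brain, had 13.2, 24.2 and 22.7 TPM, whereas FBXO44 had 0.346, 0.315 and 0.385 TPM from a TSS 2 bp away. Of the 3 such pairs with both genes expressed, the libraries overlapped for COL4A1/COL4A2 and not for ABHD14B/ABHD14A (95.3 ± 5.97 and 23.1 ± 5.09 TPM, SD, n = 3) or TMC6/TMC8.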

How the data were processed

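H3K4me3 and H3K27ac were read in 2 pools each and RNA in 3 libraries, all of 1 condition. Per the labels and the study's methods, reads were trimmed (cutadapt 1.9.1, Trimmomatic 0.39) and aligned to the study's own dunnart assembly (Bowtie2 2.3.5.1 for chromatin, HISAT2 2.21 for RNA), with SAMtools 1.9 and Picard 2.23.1. The authors lifted Tasmanian devil gene models with Liftoff and deposited whole-number counts per gene from Subread 2.0.1, with strand taken into account. The libraries held 16096971 to 17419099 counts. The authors called peaks per pool against input with MACS2 2.1.1, and the deposited lists give for each peak its fold enrichment (a ratio), −log10 p, −log10 q and summit. They hold no read totals, so no interval is given. The paper states an average sequencing depth for its chromatin libraries, which was not used here.

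From these files, peaks with −log10 q over 1.301 were kept (148361 to 198269 per list). Counts were divided by summed exon length and scaled to give TPM, and a gene was called expressed above 1 TPM in all 3 libraries. Broken lines left 11 gene models without counts, none of them a member. A TSS was the 5′ end of a model. Shares and medians are descriptions, without tests. Ratios within a pair are log2 of TPM with no pseudocount. Python 3.11.15, pandas 2.3.3, scipy 1.17.1 and edgeR 4.0.16 (TMM scaling, as an alternative) were used, and the scripts were tested on simulated data. Alternatives covered distance, window, peak threshold, expression threshold, scaling, models with symbols, and each library or pool left out.

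The members and gene lists were chosen with earlier results of these data known. Pairs were named when on a list of known divergent pairs. Among pairs with symbols, those with the highest TPM (10), strongest H3K4me3 (8), most unequal (8) or most equal levels (5), shortest distance (5) and marked silent genes (up to 5) were named too, as were pairs of developmental lists, up to 3 pairs of each functional list, and those next to the limit (3 on each side). Others are said to be chosen afterwards. Promoter motifs were not analysed here, and a few genes that this rule names are not reported here.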

Additional observations from a re-analysis of the deposited data

How the results depend on the processing

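The number of pairs was 715, 952 and 493 with a limit of 500 bp, a limit of 2000 bp and models with symbols only. With models with symbols only, 98.4% of regions had H3K4me3, 99.2% H3K27ac and 98.2% both marks, 1 H3K4me3 peak covered both TSSs in 97.9%, both genes were expressed in 83.8%, and the median level was 22.0 TPM. With a limit of 2000 bp, 1 H3K4me3 peak covered both TSSs in 90.2%. With −log10 q over 10 the shares with H3K4me3, H3K27ac and both were 92.9%, 92.6% and 91.8%, and without the 1 kb flanks 93.6%, 94.6% and 93.1%. Both genes were expressed in 65.7%, 43.9% and 31.6% of pairs with thresholds of 0.5, 5 and 10 TPM. With log2(TPM + 0.1) and no filter, the median absolute log2 ratio was 2.36. Leaving out 1 library, the share of pairs without overlap was 84.8% to 88.3%, with 2 values a side in place of 3. In the pairs that are direct neighbors in RefSeq, an alternative chosen after seeing the data, H3K4me3 was found in 99.0%, both marks in 99.0%, both genes expressed in 89.3%, and the median absolute log2 ratio was 1.49. Without tRNA pairs, also chosen afterwards, the shares were 95.2%, 96.1% and 95.1%, with both genes expressed in 62.4%. The cause of these shifts was not tested, and some of the alternatives also change the set of pairs or values used.

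No paired analysis was possible because all samples belong to 1 condition, so there are no groups of samples to pair by replicate. Ratios between the genes of a pair were taken within each library. The chromatin lists carry no depth, which limits what a missing peak shows, and 222 pairs hold a gene with 0 counts in a library, so their ratio could not be computed in every library. The start sites are those of lifted models, and a shifted 5′ end would move a pair in or out of the set.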
